A study of Mus musculus with 6 samples.

Results

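The genes described here encode 10 G protein-coupled receptors for transmitters that tune cortical neurons: the muscarinic acetylcholine receptors Chrm1, Chrm2, Chrm3 and Chrm4, the adrenergic receptors Adra1b, Adra2a and Adrb1, the dopamine receptor Drd2, the cannabinoid receptor Cnr1 and the nociceptin receptor Oprl1. They were chosen by name, and every probe set whose platform annotation gave exactly 1 of these symbols was used. By that rule 7 of the 10 genes had 11 of the 45101 probe sets on the array, and Chrm2, Adra2a and Adrb1 were not analysed here. A probe set counted as measured when its mean intensity reached 50 in at least 1 treatment group, a filter adapted from the submitters' advice, and this left 5 probe sets of 4 genes, Chrm1, Drd2, Cnr1 and Oprl1, among 19073 probe sets in all.

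These receptors carry slow, modulatory signals. Acetylcholine acts through Chrm1 and Chrm3, which couple to the Gq class of G proteins and phospholipase C, and through Chrm2 and Chrm4, which couple to the Gi/o class and lower cyclic AMP. The alpha-1 adrenergic receptor Adra1b uses Gq, whereas Drd2, Cnr1 and Oprl1 use Gi/o. Cnr1 sits largely on axon terminals and reduces transmitter release when it binds endocannabinoids, and it is known for high levels in a class of cortical interneuron that also makes cholecystokinin.

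The arrays held RNA on tagged ribosomes from the cortex of mice of the Glt25d2 bacTRAP line DU9, which had been backcrossed from FVB onto C57BL/6 for 3 to 5 generations. The fluoxetine group drank 0.167 mg/ml of this antidepressant in 1% saccharine and the vehicle group 1% saccharine alone, for 15 to 18 days, and each group had 3 arrays. The transgene places a tagged ribosomal protein under control of Glt25d2 (current symbol Colgalt2) to tag ribosomes in layer 5 pyramidal cells, and the affinity purification enriches their messages without removing all others. Each array stands for an independent purification labelled a biological replicate, and the number, age and sex of the mice behind it are not given in the labels used here. Because 1 label field, the description, gives each sample the other treatment than its title, source and treatment fields do, arrays are called FLX-titled (fluoxetine) and VEH-titled (vehicle), and under the description the sign of each treatment difference below would turn.

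Median intensities lay between 23.03 and 23.45 on the 6 arrays. All 7 layer 5 subcortical projection markers with a probe set, Colgalt2 among them, reached the filter. So did all 10 interneuron markers, all 10 astrocyte markers, 9 of 9 oligodendrocyte lineage markers, 7 of 8 microglia markers and 6 of 9 vessel markers. The RNA thus also held messages typical of other cells. The striatal projection neuron markers reached the filter too (6 of 6), which does not show from which cells their messages came. Of all 18193 genes with a probe set, 10830 reached it. Some of these marker lists leaned to higher or lower values in the FLX-titled arrays. Over all probe sets measured, 8985 of 19073 had a log2 difference above 0. The summed intensity of the vessel markers was 1839 to 2118 in FLX-titled and 1325 to 1698 in VEH-titled arrays, without overlap, and all 6 vessel genes measured had a log2 difference above 0 (median 0.37). The 3 vessel genes that missed the filter, Pecam1, Flt1 and Tek, had log2 differences of -0.15, -0.14 and -0.053. The median log2 deviation of the 9 vessel markers did overlap, at 0.045 to 0.12 in FLX-titled and -0.48 to 0.18 in VEH-titled arrays. The limma fit gave Acta2, the actin of vascular smooth muscle, an unadjusted p of 0.00843 (adjusted p = 1). Over all probe sets measured, 0.634% had an unadjusted p under 0.05. Acta2 and the endothelial transporter gene Abcb1a were the vessel genes whose groups did not overlap, 2 of the 6 measured, against 3.65% of all probe sets measured. All 10 astrocyte genes were also above 0 (median 0.26), with pair medians of -0.12, -0.014 and 0.83, and their summed intensity overlapped between groups (11722 to 17206 in FLX-titled and 8868 to 15282 in VEH-titled arrays). Of the 7 microglia genes, 6 were above 0 (median 0.20), with pair medians of -0.22, 0.033 and 0.67 and overlapping sums. Of the 9 oligodendrocyte lineage genes, 7 were above 0 (median 0.15), with pair medians of -0.081, -0.13 and 0.55. Of the 7 layer 5 genes, 6 were below 0 (median -0.14), with pair medians of -0.0042, -0.18 and -0.22. The layer 5 sum was 45434, 35011 and 37983 in FLX-titled and 49600, 38326 and 44497 in VEH-titled arrays. In every pair the FLX-titled array had the lower sum, while the groups overlapped. Pcp4, the brightest of the 7 genes, made up most of the sum. Of the 7 genes, 2 (Pcp4 and Tcerg1l) were lower in all 3 pairs, as were 13.4% of all probe sets measured. The part of these markers in the receptor values was not tested. In such purified RNA, fewer cells of a type, less RNA per cell and less carry-over through the purification cannot be told apart. Arrays that share a replicate number resembled each other: the numbers 1 to 3 accounted for a median of 69.9% of the variation (sums of squares of log2 intensity) over all probe sets measured. The 3 arrays per group limit the precision of every difference below. Standard errors and intervals below come from a fit without the replicate number, so they include the variation between replicate numbers. Adding the number as a block gave a median SE of 0.11 over all probe sets measured, in place of 0.18.

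Setting FLX-titled against VEH-titled arrays asks whether the drug altered the ribosome-bound messages of these receptors. The messages of Chrm1, Cnr1 and Oprl1 were measured well above the filter on all 6 arrays and had nearly the same mean in both groups. Drd2 lay close to the filter and its mean was lower in the FLX-titled arrays, with overlapping values. Chrm3, Chrm4 and Adra1b stayed below an intensity of 50 on every array.

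Of the 5 measured receptor probe sets, 0 passed an adjusted p of 0.05 in limma, as did 0% of the 19073 probe sets tested. At an unadjusted p under 0.05 limma gave 0 of 5 receptor probe sets, against 0.634% of all. Blocking on the replicate number left 0 of 5 by either criterion, against 4.02% of all at an unadjusted p under 0.05. In none of the 5 were the groups without overlap, which held for 3.65% of all, and in none did the 3 pairs of arrays share a sign, which held for 24.2% of all. With 5 probe sets of 4 genes, these counts cannot be told from the background shares.

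**Figure D1:**
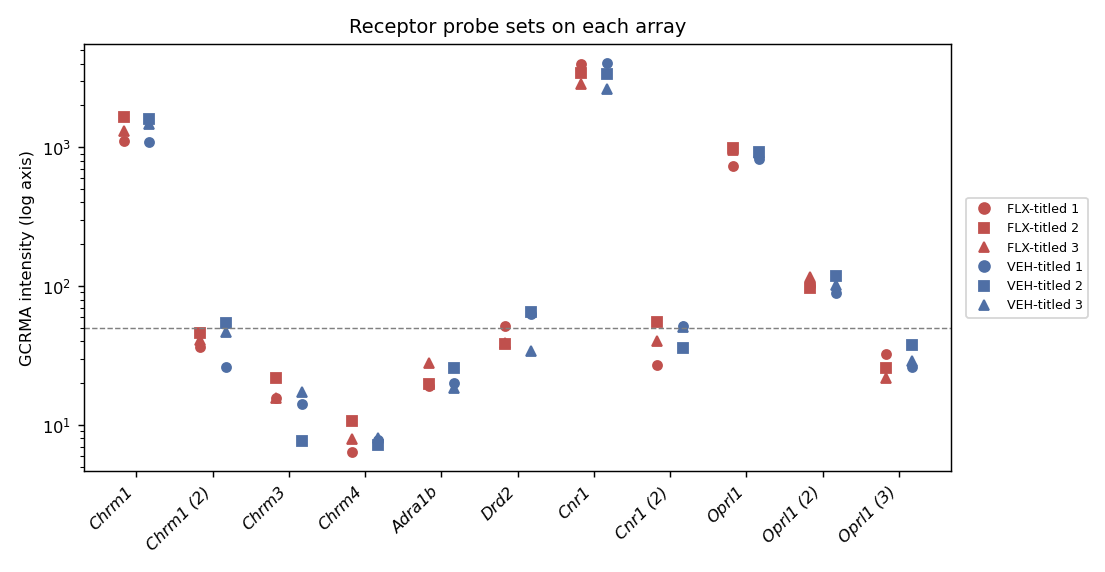
GCRMA intensity (log axis) of the 11 receptor probe sets on each of 6 arrays; red symbols are FLX-titled and blue symbols VEH-titled arrays, with 1 symbol shape per replicate number, and the dashed line marks an intensity of 50. A number in parentheses marks a further, dimmer probe set of the same gene, and heights cannot be compared between probe sets. The groups overlap for every probe set, and Chrm3, Chrm4 and Adra1b lie below 50 throughout.

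Among the muscarinic receptors, Chrm1, the main Gq-coupled muscarinic receptor of cortical pyramidal cells, was the 1 gene measured. Its brighter probe set, 1439611_at, had intensities of 1113, 1640 and 1317 in FLX-titled arrays 1, 2 and 3, against 1096, 1590 and 1480 in VEH-titled arrays 1, 2 and 3. Both arrays numbered 1 were the lowest and both numbered 2 the highest, whatever the treatment. The group means were 1357 ± 266 and 1389 ± 259 (SD, n = 3 each) in FLX-titled and VEH-titled arrays. The log2 difference was -0.034 ± 0.21 (SE, limma, adjusted p = 1), and its 95% interval ran from 0.70-fold to 1.37-fold. By pair it was 0.021, 0.045 and -0.17.

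The numbers thus accounted for 95.2% of the variation of Chrm1, a larger share than for 91.6% of probe sets measured, and the treatment for 0.54%. Slc17a7, the vesicular glutamate transporter of cortical excitatory neurons, was also lowest on the arrays numbered 1, with 953 in the FLX-titled and 663 in the VEH-titled one, against 1438 to 1999 in the other FLX-titled and 1551 to 1895 in the other VEH-titled arrays. The other 2 excitatory neuron markers did not share this order: Neurod6 was highest on the arrays numbered 1, with 2221 in the FLX-titled and 2462 in the VEH-titled one, and Camk2a overlapped between those arrays and the rest. The summed intensity of the 3 was 4832, 6099 and 4764 in FLX-titled and 4868, 5266 and 5500 in VEH-titled arrays. The part of these markers in the Chrm1 values was not tested. Over all probe sets measured, 45.1% had both arrays numbered 1 apart from the other 4, so this feature is common in these data.

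The second Chrm1 probe set, 1450833_at, was dim, with 36.5, 46.2 and 40.7 in FLX-titled and 26.2, 54.5 and 46.5 in VEH-titled arrays. It too had its lowest values on the arrays numbered 1, and it reached 50 on 1 array. Chrm3, a Gq-coupled relative best known for control of glands and smooth muscle, had intensities of 15.6, 21.9 and 15.7 in FLX-titled and 14.3, 7.66 and 17.2 in VEH-titled arrays. The low value of VEH-titled array 2 stood below the rest, and all 6 values lay in a range where no difference was tested. Chrm4, a Gi/o-coupled receptor abundant in striatal projection neurons, had 6.40 to 10.7 in FLX-titled and 7.21 to 8.09 in VEH-titled arrays. The range of its VEH-titled values fell inside that of its FLX-titled values. Low intensity on 1 probe set does not show that a message is absent.

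Of the 3 adrenergic receptors, only Adra1b, through which noradrenaline activates Gq, had a probe set annotated with its symbol alone. Its intensities were 19.0, 19.8 and 28.0 in FLX-titled arrays and 20.1, 25.8 and 18.4 in VEH-titled arrays. The highest value was that of FLX-titled array 3 and the lowest that of VEH-titled array 3, with the others between. Adra2c, an alpha-2 receptor that uses Gi/o and a relative outside the 10 genes, did reach the filter, with 88.9, 108 and 177 in FLX-titled and 132, 136 and 123 in VEH-titled arrays. Its log2 difference was -0.13 ± 0.25 (SE, limma, unadjusted p = 0.627), and FLX-titled arrays 1 and 3 held its lowest and its highest value.

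Drd2 encodes the D2 dopamine receptor, a target of antipsychotic drugs that is best known in striatal neurons and is also found in layer 5. Its probe set, 1418950_at, had intensities of 51.3, 38.4 and 39.1 in FLX-titled arrays and 62.8, 65.4 and 34.3 in VEH-titled arrays. Of the 6 values, 3 reached 50, and the 2 highest and the lowest all came from VEH-titled arrays. The means were 42.9 ± 7.27 and 54.2 ± 17.3 (SD, n = 3 each) in FLX-titled and VEH-titled arrays, so that Drd2 entered the test through the vehicle group alone. The log2 difference was -0.29 ± 0.27 (SE, limma, unadjusted p = 0.317, adjusted p = 1), with a 95% interval from 0.53-fold to 1.27-fold.

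The Drd2 difference changed sign between pairs, at -0.29, -0.77 and 0.19 for pairs 1, 2 and 3. Without pair 2 it was -0.052 and without VEH-titled array 3 it was -0.59. Its standard error was above the median of 0.18 over all probe sets measured. As Drd2 passed the filter through the vehicle group alone, its difference was not ranked against those of other probe sets.

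The summed intensity of the 6 striatal projection neuron markers was 9121, 8762 and 7289 in FLX-titled arrays and 9830, 10767 and 6493 in VEH-titled arrays. As for Drd2, VEH-titled arrays 2 and 1 were the highest and VEH-titled array 3 the lowest. One of the 6, the enkephalin precursor Penk, had 2628, 2545 and 1993 in FLX-titled and 2819, 3527 and 2063 in VEH-titled arrays. The sum is carried by the brightest genes, and the 6 did not all share its order. Ppp1r1b was lowest on VEH-titled array 1 (922), and Rgs9 was higher in the FLX-titled array of all 3 pairs. The median log2 deviation of the 6 markers from their means was 0.077, 0.035 and -0.16 in FLX-titled and 0.0033, 0.30 and -0.32 in VEH-titled arrays, so that VEH-titled array 1 lay below FLX-titled arrays 1 and 2 by this measure. The part of these markers in the Drd2 difference was not tested. Drd1, the D1 receptor, which stimulates cyclic AMP and is also 1 of the 6, had 410, 493 and 408 in FLX-titled and 355, 500 and 346 in VEH-titled arrays. Its log2 difference was 0.14 ± 0.18 (SE, limma, unadjusted p = 0.463), with the groups overlapping.

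**Figure D2:**
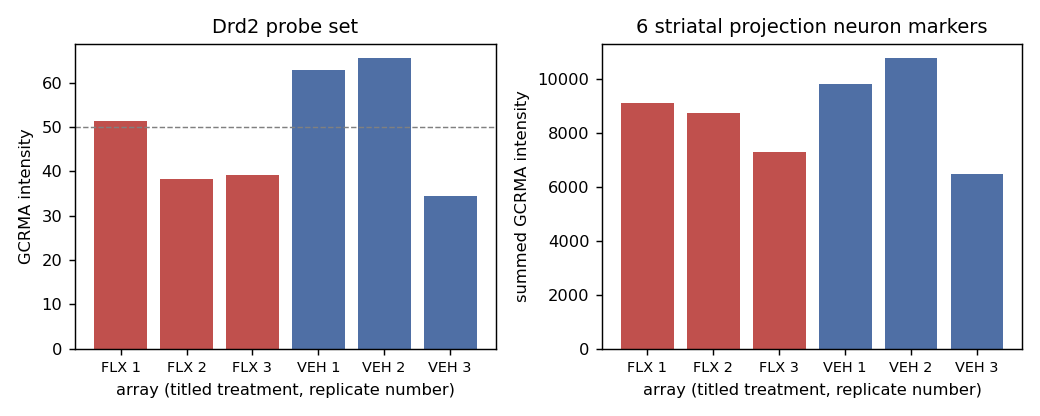
Left, GCRMA intensity of the Drd2 probe set on each array, with the dashed line at 50; right, the summed intensity of 6 striatal projection neuron markers on the same arrays. Red bars are FLX-titled (FLX) and blue bars VEH-titled (VEH) arrays. In both panels VEH 2 and VEH 1 are highest and VEH 3 is lowest.

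Cnr1, the CB1 receptor, differed least between arrays of equal number among the 5 measured probe sets. Its brighter probe set, 1434172_at, had intensities of 3983, 3404 and 2831 in FLX-titled arrays 1, 2 and 3, and of 4011, 3355 and 2624 in VEH-titled arrays 1, 2 and 3. The arrays numbered 1 were the highest and those numbered 3 the lowest in each group. The means were 3406 ± 576 and 3330 ± 694 (SD, n = 3 each) in FLX-titled and VEH-titled arrays, a log2 difference of 0.040 ± 0.20 (SE, limma, adjusted p = 1). The 95% interval ran from 0.74-fold to 1.43-fold, and the pair differences were -0.010, 0.021 and 0.11.

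The replicate numbers accounted for 98.0% of the variation of Cnr1, more than for 97.1% of probe sets measured, and the treatment for 0.78%. From its lowest to its highest array the intensity spanned 1.53-fold. Cck, the cholecystokinin gene, which marks the interneurons richest in Cnr1 but is also made by pyramidal cells, was likewise highest on the arrays numbered 1, with 13686 in the FLX-titled and 12797 in the VEH-titled one. On the other arrays Cck lay at 8401 and 9188 in the FLX-titled and 9734 and 10844 in the VEH-titled group. Of the 10 interneuron markers, 2 (Cck and Pvalb) had both arrays numbered 1 above the other 4, and Gad1, Gad2 and Lhx6 had their lowest or second lowest value on FLX-titled array 1 (16165, 688 and 83.1). The summed intensity of the 10 was lowest on the arrays numbered 3, as Cnr1 was, with 35881 in FLX-titled array 3 and 32592 in VEH-titled array 3. On the remaining arrays it was 40009 and 40415 in the FLX-titled and 40519 and 41224 in the VEH-titled group. Gad1 and Cck carried most of that sum, and the 10 markers did not all share its order. Sst, Vip and Npy were lowest on array 3 of each group, and Cck and Pvalb on array 2 of each group. Gad1, Gad2, Slc32a1, Lhx6 and Reln were lowest on array 1 of the FLX-titled and array 3 of the VEH-titled group. The layer 5 marker sum was highest on the arrays numbered 1, at 45434 in the FLX-titled and 49600 in the VEH-titled one, against 35011 to 37983 and 38326 to 44497 in the others of each group. Pcp4 carried most of that sum, with 32186 and 37135 on the FLX-titled and VEH-titled arrays numbered 1. Of the 7 layer 5 genes, 4 had both arrays numbered 1 above the other 4. Fezf2 had them below, at 2353 and 1961. The part of these markers in the Cnr1 values was not tested.

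The second Cnr1 probe set, 1419425_at, had intensities of 27.2, 55.2 and 40.5 in FLX-titled and 52.0, 35.7 and 50.5 in VEH-titled arrays and missed the filter. It did not follow the brighter one: its pair differences were -0.94, 0.63 and -0.32, and the arrays numbered 1 held its lowest and one of its higher values.

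Oprl1 encodes the receptor for the opioid-like peptide nociceptin. Its brightest probe set, 1426204_a_at, had intensities of 734, 990 and 956 in FLX-titled arrays and 826, 921 and 904 in VEH-titled arrays. The arrays numbered 1 were again the lowest, and the other 4 lay within a narrow band. The means were 893 ± 139 and 884 ± 50.7 (SD, n = 3 each) in FLX-titled and VEH-titled arrays. The log2 difference was 0.0042 ± 0.16 (SE, limma, adjusted p = 1), with a 95% interval from 0.78-fold to 1.30-fold and pair differences of -0.17, 0.10 and 0.080.

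A second probe set of Oprl1, 1450486_a_at, had 99.8, 97.3 and 117 in FLX-titled and 88.7, 118 and 102 in VEH-titled arrays. Its log2 difference was 0.033 ± 0.16 (SE, limma, adjusted p = 1), within 0.79-fold and 1.32-fold. The array highest within each group differed from that of the first probe set in the FLX-titled group, where it was array 3 in place of array 2. The third, 1422099_a_at, lay between 21.6 and 32.6 in FLX-titled and between 26.1 and 37.8 in VEH-titled arrays, below the filter. For Chrm1 and Oprl1 the arrays numbered 1 lay below the other 4 on the brightest probe set, and for Cnr1 above them. With 45.1% of all probe sets set apart in this way, 3 of 5 receptor probe sets is near the background.

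**Figure D3:**
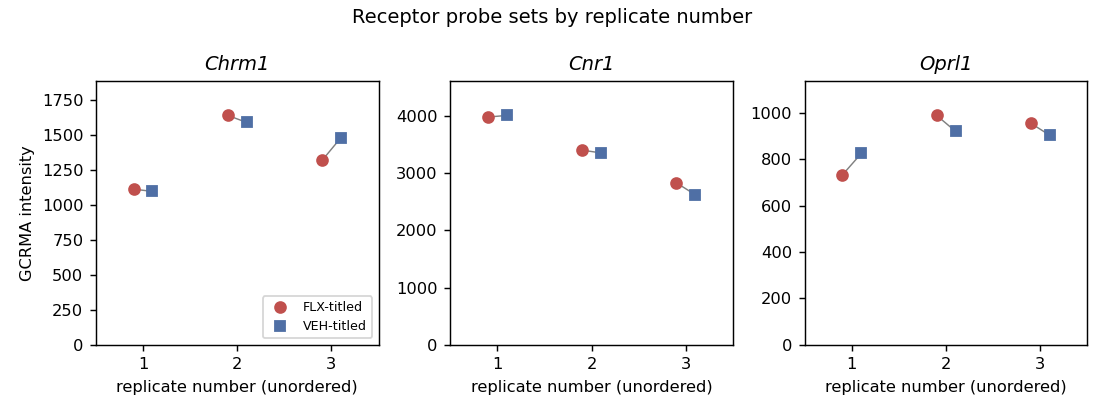
GCRMA intensity of the brightest probe set of Chrm1, Cnr1 and Oprl1 by replicate number, with each axis starting at 0; red circles are FLX-titled and blue squares VEH-titled arrays, and grey lines join arrays of equal number, whose order has no meaning. Arrays of equal number lie close together for Cnr1 and Chrm1, while the replicate numbers differ up to 1.53-fold for Cnr1 between the highest and the lowest array.

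**Figure D4:**
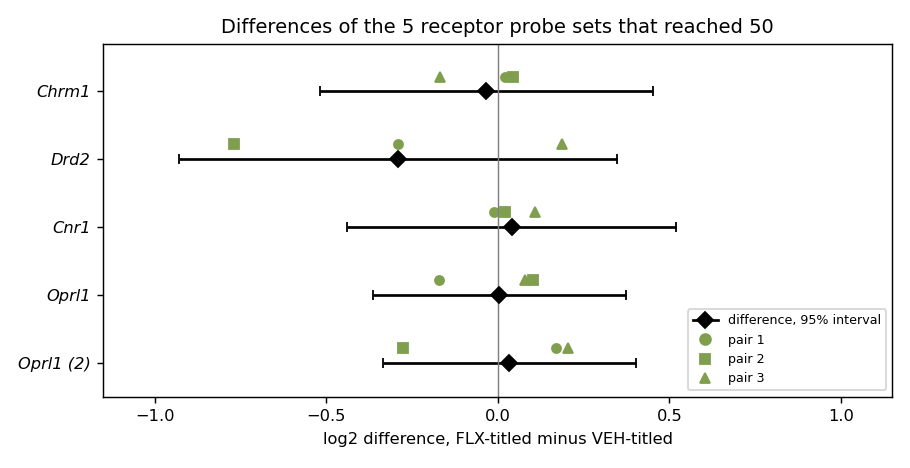
Log2 difference, FLX-titled minus VEH-titled, of the 5 receptor probe sets that reached an intensity of 50. Black diamonds with bars are the limma estimate and its 95% interval, green symbols are the differences within pairs 1, 2 and 3, and (2) marks the second probe set of Oprl1. All 5 intervals contain 0, and Drd2 has the widest interval and the widest spread of pairs.

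The 5 receptor families hold 15 further genes, of which 8 had a named probe set and Adra2c and Drd1, given above, reached the filter. The other 6, Drd3, Drd4, Cnr2, Oprd1, Oprk1 and Oprm1, had 42.2 as their highest intensity. Of these, Oprm1, the mu opioid receptor, had no overlap between groups, with 13.5, 12.4 and 16.6 in FLX-titled and 12.3, 11.5 and 10.4 in VEH-titled arrays. All these values are far below the filter, where 10.4% of probe sets had no overlap in either direction.

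Genes that supply the transmitters, clear them or carry the receptors' signals were read from lists of 50 genes, of which 45 had a named probe set and 34 reached the filter. In limma 0 of the 34 passed an adjusted p of 0.05 and 0 an unadjusted p under 0.05, with the replicate block as without it. Of all probe sets, 4.02% with and 0.634% without the block had an unadjusted p under 0.05. The 34 had a median log2 difference of -0.029, against -0.0096 over all probe sets measured, 13 of them above 0 and 21 below. None had groups without overlap, against 3.65% of all. With 34 genes, these counts of 0 cannot be told from the background shares. All 3 pairs were higher for 3 of the 34 and lower for 3, against 10.9% and 13.4% of all probe sets. Both arrays numbered 1 stood apart from the other 4 for 14 of the 34, near the share in all.

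Acetylcholine in cortex comes mostly from neurons elsewhere, and Chat, its synthesising enzyme, lay at 4.65 to 4.67 in FLX-titled and 4.70 to 4.91 in VEH-titled arrays. These groups did not overlap, and all 6 values lie at the bottom of the intensity scale. Of all probe sets that missed the filter, 10.4% had no overlap in either direction. Ache, the enzyme that breaks acetylcholine down, had 301, 377 and 399 in FLX-titled and 321, 436 and 333 in VEH-titled arrays, a log2 difference of -0.015 ± 0.18 (SE). Among genes of catecholamine metabolism, the monoamine oxidase genes Maoa and Maob had log2 differences of -0.022 ± 0.13 and -0.20 ± 0.22 (SE). Maob, which astrocytes also make, was lowest on FLX-titled array 1 at 503 and highest on VEH-titled array 2 at 789.

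All 8 genes of the endocannabinoid system outside the receptors reached the filter. Their log2 differences lay between -0.091 and 0.099. Dagla, which makes the endocannabinoid 2-arachidonoylglycerol in neurons, had 1018, 995 and 918 in FLX-titled and 962, 1144 and 971 in VEH-titled arrays, with overlap throughout. Mgll, which breaks this lipid down, had 1802, 3533 and 3394 in FLX-titled and 2032, 3312 and 3069 in VEH-titled arrays. Mgll was thus lowest on the arrays numbered 1, where Cnr1 was highest, and its log2 difference between treatments was 0.022 ± 0.31 (SE). Cnrip1, which encodes a protein that binds the tail of the CB1 receptor, was higher in all 3 pairs, but by 0.013, 0.085 and 0.017 on the log2 scale.

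Pnoc, the nociceptin precursor and so the ligand gene of Oprl1, had 88.2, 70.8 and 65.3 in FLX-titled and 104, 75.0 and 61.6 in VEH-titled arrays. The arrays numbered 1 were highest, and the log2 difference between treatments was -0.076 ± 0.22 (SE).

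Of the receptor kinases and arrestins, which switch active receptors off, 5 of 7 reached the filter, with log2 differences between -0.14 and 0.062. Grk3 had the widest spread, at 1032, 2307 and 2692 in FLX-titled and 1542, 2109 and 2060 in VEH-titled arrays. Its difference was -0.021 ± 0.36 (SE), with the arrays numbered 1 lowest. The kinase gene Grk4 had no overlap between groups, with 7.79 to 8.21 in FLX-titled and 8.27 to 11.5 in VEH-titled arrays. All these values are far below the filter, and 10.4% of probe sets that missed it had no overlap.

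Downstream, 8 of 12 genes of the Gq branch and 7 of 8 of the Gi/o branch were measured. Plcb4, a phospholipase C activated by Gq, had the lowest difference of the 34 genes, with 2336, 1899 and 1638 in FLX-titled and 2423, 2613 and 1871 in VEH-titled arrays. Its log2 difference was -0.24 ± 0.19 (SE, limma, unadjusted p = 0.260), and all 3 pairs were lower, by amounts from -0.053 to -0.46. Plcb1, the phospholipase C of the same class best known in cortical pyramidal cells, had a log2 difference of 0.012 ± 0.15 (SE). Kcnj3, a subunit of the potassium channel opened by Gi/o-coupled receptors, was higher in all 3 pairs, by 0.11, 0.030 and 0.17. Its difference of 0.10 ± 0.19 (SE, limma, unadjusted p = 0.594) did not pass.

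**Figure D5:**
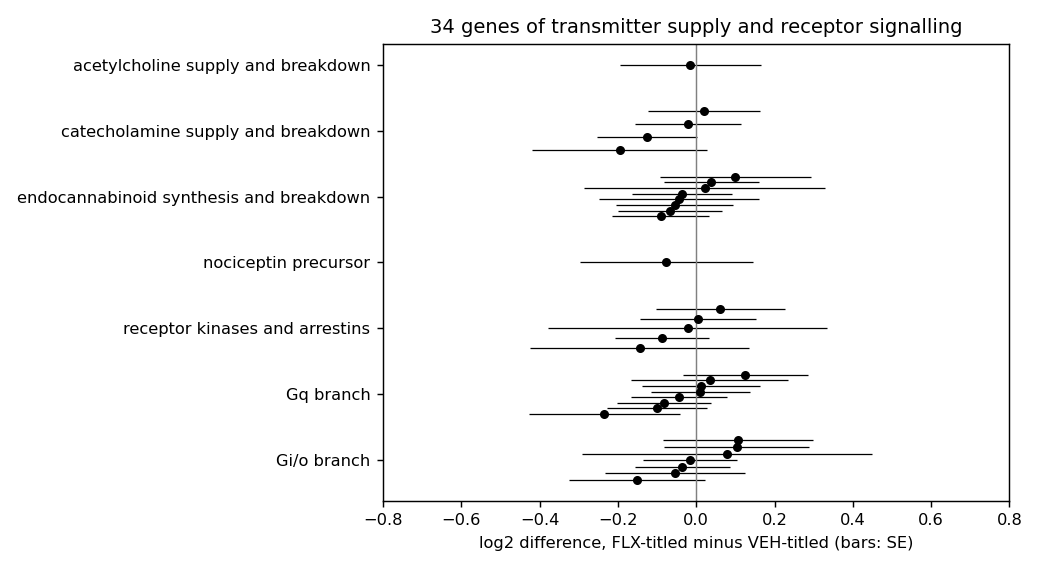
Log2 difference, FLX-titled minus VEH-titled, of 34 genes grouped by role; each point is the probe set of highest mean of 1 gene and each bar its SE from limma. Points lie between -0.24 (Plcb4) and 0.13 (Prkca) and none passed an unadjusted p of 0.05.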

How the data were processed

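The deposited table holds the authors' GCRMA intensity of each probe set on each array, a method named in the submitters' processing notes (version: not given in the sources used here). Values were read as linear intensities. RNA was amplified in 2 cycles from 15 ng, per the labels' protocols.

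After removal of 64 control probe sets, 19073 probe sets with a group mean of at least 50 were kept. The difference FLX-titled minus VEH-titled was estimated on the log2 scale with limma 3.58.1 under R 4.3.3 (lmFit, eBayes; two-sided tests; p-values adjusted over all kept by Benjamini-Hochberg). Names came from the platform annotation, in which 34945 probe sets had 1 symbol, 932 several and 9160 were not listed. Each listed gene outside the receptors was read from its brightest probe set. All receptor probe sets were named, and genes of the receptor families and pathway lists where groups did not overlap, an unadjusted p was under 0.05, or the gene is a relative, ligand gene, enzyme or signalling partner of a receptor. Members and lists were chosen with earlier results of these data known. Slc17a7, Camk2a, Neurod6, Cck, Pvalb, Gad1, Gad2, Lhx6, Penk, Ppp1r1b, Rgs9, Acta2, Abcb1a, Pdgfrb, Prkca, Plcb1, Plcb4, Kcnj3 and Grk3 were chosen after their values were seen. So were the vessel genes Pecam1, Flt1 and Tek.

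Arrays of equal number deviated together (correlations 0.74, 0.60 and 0.50), so the title numbers pair them; what they mark is not stated. No 2 arrays were alike within noise (SD of log2 differences at least 0.23). The code was tested on simulated data. Each p-value sets a group difference against the spread between arrays of a group, moderated over all probe sets kept. Without the replicate block that spread includes the variation between replicate numbers.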

Additional observations from a re-analysis of the deposited data

How the results depend on the processing

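Under 7 other settings and with any array or pair left out, 0 probe sets passed an adjusted p of 0.05 in limma, and no receptor did. The count at an unadjusted p under 0.05, 121 as reported, was 767 with the replicate block, 920 with no filter on low values (over 45037 probe sets), and between 52 (without pair 2) and 502 (without pair 1) with an array or pair left out; it also changed by over 1.5 times without FLX-titled array 1 (420), VEH-titled array 1 (273) or pair 3 (80). The block, which paired arrays by replicate number, left every receptor, family and pathway gene measured without a call. With it, the 95% interval of the log2 difference ran from -0.29 to 0.22 for Chrm1 and from -0.20 to 0.28 for Cnr1. For Drd2 it was -0.72 to 0.14, for the brightest Oprl1 probe set -0.26 to 0.27 and for the second -0.28 to 0.34. Among cell type markers the block took Pvalb, Pdgfrb and Abcb1a past an unadjusted p of 0.05 in limma, and none past the adjusted one. Acta2, past it without the block, stayed so. With the block this made 3 of 6 vessel and 1 of 10 interneuron markers measured and 0 in the other marker lists, against 4.02% of all probe sets.

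Of 79 refits of the receptor differences, 16 turned sign, all for Chrm1, Cnr1 and Oprl1, whose differences are small against their errors. The replicate block and the changed filters on low values could not alter an estimate. Setting values under 50 to 50 could alter only that of Drd2. Such refits are counted among the 79 but say nothing of stability. With arrays or pairs left out, the log2 difference ranged from -0.20 to 0.10 for Chrm1, from -0.12 to 0.19 for Cnr1, from -0.076 to 0.14 for the brightest and from -0.067 to 0.19 for the second probe set of Oprl1. Median centring put the brightest at -3.7e-05. Drd2 kept its sign, from -0.59 to -0.052, and with a mean of 50 required in both groups it was not tested. Intensities near 50 limit what can be said of Drd2, and those of Chrm3, Chrm4 and Adra1b were not tested.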
